A study of Mus musculus with 12 samples.

Results

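This comparison set mouse bone marrow progenitors that carried RUNX1-ETO against progenitors that carried the empty vector, all of them kept with GM-CSF. It used 6 of the 12 arrays of the series, 3 labelled RE+GM and 3 labelled Mig+GM, chosen by their titles, and every probe on them with a gene symbol (23978 of 25697). In both groups, lineage-negative marrow of C57BL/6J mice was grown in StemSpan with serum, IL-3, SCF and FLT3 ligand, so these factors were shared by the controls. RE+GM cells were transduced for 24 h with the MigR1 retrovirus carrying HA-tagged RUNX1-ETO, and Mig+GM cells with MigR1 alone. Both were then washed and kept for 24 h with 10 ng/mL GM-CSF, after which cells positive for the vector's GFP, negative for lineage markers and positive for c-Kit were sorted. The RE+GM cells had thus had RUNX1-ETO for 48 h. The 6 other arrays, RE and Mig without GM-CSF (3 each), entered the fit and the test of whether an effect differed with GM-CSF. The fusion was driven by a retrovirus and not by the cells' own Runx1 locus, and the labels do not say whether replicates were separate mice, pools of mice or separate cultures. The p-values therefore cover the spread among these arrays alone, and part of that spread may be technical.

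RUNX1-ETO arises in acute myeloid leukaemia when a translocation joins the DNA-binding part of the transcription factor RUNX1 to most of the corepressor ETO (gene symbol Runx1t1). It binds RUNX sites, recruits histone deacetylases and is known for blocking myeloid maturation while letting early progenitors persist. GM-CSF acts through a receptor made of an alpha chain (Csf2ra) and a common beta chain (Csf2rb) and switches on JAK2, STAT5 and the ERK pathway, which in marrow drive the growth of granulocyte and macrophage precursors. Interferons act through JAK kinases and STAT proteins as well, and many of the genes they induce carry an interferon-stimulated response element in their promoters.

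The promoters below are of genes whose signal moved most or that stand for a group described later, and are given because the members of these groups moved together. They are the 250 bases before the RefSeq gene start (GRCm38.p6), 5′ to 3′ on the gene's strand. Capitals mark GAAANNGAA, the core of the interferon element, in Isg15 (chr4:156200819-156201068, minus strand) and Ifit3 (chr19:34583279-34583528, plus strand). In Cxcl10 (chr5:92348890-92349139, minus strand) they mark that core and GGANTTTCC, a kB motif that NF-kB can bind, and in Cxcl2 (chr5:90903649-90903898, plus strand) the kB motif alone. In Mmp13 (chr9:7272264-7272513, plus strand) they mark a RUNX motif (TGTGGT) and an AP-1 motif (TGANTCA). In Mcm6 (chr1:128359706-128359955, minus strand) they mark TTTGGCG, a form of the E2F motif. Both strands were searched, and overlapping matches run together.
Isg15: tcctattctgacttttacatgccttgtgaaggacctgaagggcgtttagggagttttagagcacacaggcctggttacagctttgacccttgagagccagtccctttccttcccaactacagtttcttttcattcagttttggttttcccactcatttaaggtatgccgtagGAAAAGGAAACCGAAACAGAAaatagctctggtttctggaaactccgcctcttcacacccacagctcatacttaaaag
Ifit3: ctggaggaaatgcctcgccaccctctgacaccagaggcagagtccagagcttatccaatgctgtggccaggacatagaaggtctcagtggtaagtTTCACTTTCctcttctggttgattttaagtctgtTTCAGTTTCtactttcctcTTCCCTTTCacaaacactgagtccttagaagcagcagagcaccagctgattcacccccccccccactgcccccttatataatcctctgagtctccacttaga
Cxcl10: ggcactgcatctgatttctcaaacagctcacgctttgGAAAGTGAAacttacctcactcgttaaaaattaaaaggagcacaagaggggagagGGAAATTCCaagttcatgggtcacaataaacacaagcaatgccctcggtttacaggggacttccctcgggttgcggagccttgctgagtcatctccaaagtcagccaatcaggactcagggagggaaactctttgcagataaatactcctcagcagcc
Cxcl2: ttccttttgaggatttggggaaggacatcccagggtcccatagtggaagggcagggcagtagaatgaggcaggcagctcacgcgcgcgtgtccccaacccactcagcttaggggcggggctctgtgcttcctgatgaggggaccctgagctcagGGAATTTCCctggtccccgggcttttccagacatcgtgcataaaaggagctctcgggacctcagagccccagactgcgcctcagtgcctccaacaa
Mmp13: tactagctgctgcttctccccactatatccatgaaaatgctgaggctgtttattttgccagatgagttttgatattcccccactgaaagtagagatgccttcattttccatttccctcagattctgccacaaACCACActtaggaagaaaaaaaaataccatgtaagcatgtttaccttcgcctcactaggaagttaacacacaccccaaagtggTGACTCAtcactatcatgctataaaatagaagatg
Mcm6: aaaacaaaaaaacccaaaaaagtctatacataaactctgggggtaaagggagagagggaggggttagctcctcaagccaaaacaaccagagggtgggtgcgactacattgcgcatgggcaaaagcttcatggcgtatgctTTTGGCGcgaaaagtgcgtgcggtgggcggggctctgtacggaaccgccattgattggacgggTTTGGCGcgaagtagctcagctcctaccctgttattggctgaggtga

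The Isg15 promoter held 3 overlapping matches to the interferon core between 78 and 58 bases before the start, and Ifit3 held 3 separate ones. Over all 27025 genes with a promoter in the table, 8.18% held that core in this window, against 21 of the 39 interferon-stimulated genes tested that had a promoter there (53.8%). The kB motif was in 1.25% of all promoters and in 4 of 18 chemokine promoters. TTTGGCG was in 1.45% of all promoters and in 4 of 40 promoters of replication genes, where another E2F form, TTCCCGC, was in 10 of 40 against 4.38% of all. The RUNX motif was in 15.9% of all promoters, in 13.9% of those of the 1721 genes called higher and in 13.0% of those of the 2172 genes called lower. For the AP-1 motif these shares were 7.82%, 8.83% and 4.1%. The listed and called genes were all tested genes, and 9060 named genes tested had a promoter there. Among these the shares were 7.97% for the interferon core, 1.46% for the kB motif, 2.15% for TTTGGCG, 7.21% for TTCCCGC, 13.6% for the RUNX motif and 6.53% for the AP-1 motif. These are matches of letters in a window, given as a description, and other motifs that were searched are not given here.

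Correlations across units were 0.9912 to 0.9936 among the RE+GM arrays, 0.9815 to 0.9868 among the Mig+GM arrays and 0.8941 to 0.9134 between the groups. The mean deposited signal was 418 to 459 on RE+GM arrays and 410 to 440 on Mig+GM arrays. Background was estimated from the dim signals of each array, and 55.6% to 60.7% of probes lay above it on RE+GM arrays and 52.4% to 58.9% on Mig+GM arrays. Mig+GM replicate 1 stood apart on the third principal component (27.5, the other arrays -13.9 to 9.61). Results without it are therefore given where the call of a named gene changed, and for some but not all of the lists whose counts changed. Of the sort's own markers, no probe was named Kit, so c-Kit was not analysed here. Of 32 B, T and NK cell genes on the array, 12 did not pass the filter on dim probes, among them Cd3d, Cd4, Cd8a and Cd79a, and 20 did, among them Cd3e, Cd8b1 and Cd79b. Of those 20, 5 were called higher (Cd79b (2.24), Gata3 (1.81), Dntt (at least 2.49-fold), Il7r (1.28) and Blnk (at least 1.16-fold)) and 3 lower (Nkg7 (-1.86), Thy1 (-1.62) and Vpreb1 (-0.81), log2 changes), and their summed normalized signal was 4227 to 5025 on RE+GM arrays and 5251 to 7908 on Mig+GM arrays. The myeloid integrin Itgam was above background on 1 RE+GM array and 0 Mig+GM arrays. With 3 arrays a group, precision is limited by their number.

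The transduced gene was read first. Runx1t1, the ETO portion of the fusion and the check of the labels, had log2 signals of 8.30, 8.77 and 8.33 in RE+GM cells, against 6.25, 6.16 and 6.05 in Mig+GM cells, where all 3 Mig+GM arrays were under background. It was higher by at least 4.63-fold (means in RE+GM and Mig+GM of 8.47 and 6.15 on the log2 scale, limma adjusted p = 2.33e-07), and the groups lay far apart. A further Runx1t1 probe, dim in both groups, was not called (log2 change -0.05), and which part of the transcript each probe reads was not analysed here. Runx1 itself, whose first part is in the fusion, was 9.85, 9.67 and 9.67 in RE+GM cells, against 8.76, 9.02 and 8.77 in Mig+GM cells (log2 change 0.88, SE 0.16, limma adjusted p = 9.44e-04), without overlap. Over all units tested, 18.8% were called higher and 23.4% lower, and whether the next list differed from these shares was not tested. Of 20 tested genes for RUNX and ETO proteins and their corepressors, whose median log2 change was -0.047, 6 were called higher and 7 lower. Those lower included Cbfb (log2 change -0.63, SE 0.10, limma adjusted p = 2.18e-04), the partner that steadies RUNX1 on DNA, and Cbfa2t3, an ETO relative (log2 change -1.60, SE 0.22, limma adjusted p = 1.16e-04). The histone deacetylase genes differed in direction, with Hdac1 (0.26) higher and Hdac2 (-0.995) and Hdac3 (-0.43) lower (log2 changes). The calls of Hdac1 and Hdac3 were lost without single arrays (Hdac1 without any 1 array but RE+GM replicate 2, Hdac3 without RE+GM replicate 3 or Mig+GM replicate 2), with limma adjusted p up to 0.162 and 0.102 over the alternatives. Both were also lost with median scaling in place of quantiles. That of Hdac1 was lost too in the authors' normalized table, with an offset of 16 and with only the 6 arrays compared.

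Chains of the GM-CSF receptor were next. Csf2rb, the common beta chain, had log2 signals of 9.33, 9.43 and 9.20 in RE+GM cells, against 7.94, 8.35 and 7.86 in Mig+GM cells (log2 change 1.27, SE 0.22, limma adjusted p = 4.89e-04). Csf2rb2, its IL-3-specific copy in mice, rose as well (log2 change 1.80, SE 0.32, limma adjusted p = 6.72e-04), as did the IL-3 receptor alpha chain Il3ra (log2 change 1.05, SE 0.13, limma adjusted p = 3.84e-05). The sequences of Csf2rb and Csf2rb2 are near copies, so that probes may share signal. Csf2ra, the GM-CSF-specific chain, was not called (8.24, 8.34 and 7.85 in RE+GM cells, against 8.51, 7.35 and 7.48 in Mig+GM cells, log2 change 0.37, limma adjusted p = 0.403), although it was called higher without Mig+GM replicate 1.

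Across the whole array, RUNX1-ETO cells under GM-CSF differed from controls at a large part of the genes. With 1 probe kept per gene, 12097 units were tested, 11118 named genes and 979 probes without a name. Limma called 2274 units higher in RE+GM (18.8%) and 2827 lower (23.4%) at an adjusted p under 0.05, 42.2% in either direction. Several gene lists described below had shares near these, so their counts alone do not set them apart from the array. Among them were stress response (23.3% higher and 23.3% lower), MHC class II (20% higher), cytosolic ribosomal proteins (23.1% lower) and megakaryocyte genes (25.0% lower). Chemokine receptors and the MYC, MAX and MXD network (each 27.3% higher and 18.2% lower) were not far from them either. The same held for lymphoid genes (25.0% and 15.0%) and complement genes (27.8% higher). The shares lower of mast cell and basophil (17.2%), microbial sensor (17.2%), adhesion (19.05%), leukotriene (19.05%) and blood transcription factor genes (18.5%) were under that of all units. The 3 arrays of one group did not overlap those of the other at 6342 units (52.4%). The rises were larger than the falls: 303 units rose and 32 fell by at least 4-fold, and 39 rose and 0 fell by at least 16-fold. The median over all units was -0.045 on the log2 scale. Of the units called higher, 265 did not exceed background on any Mig+GM array, so that only a lower bound of their fold can be given. In bulk RNA, fewer cells of a type and less RNA per cell cannot be told apart.

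**Figure D1:**
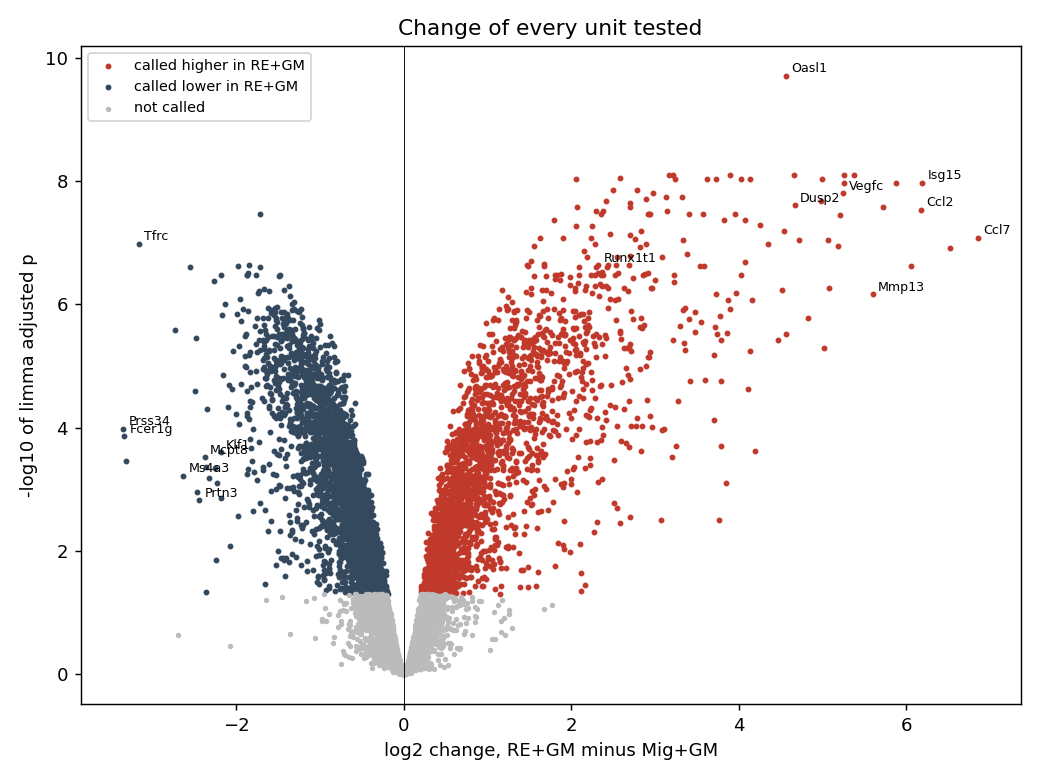
The log2 change of each of the 12097 units (RE+GM minus Mig+GM, horizontal) against the -log10 of its limma adjusted p (vertical). Units called higher are red and those called lower dark blue, and the rises reach further from 0 (Ccl7, 6.85) than the falls (Prss34, -3.35).

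The 20 largest rises, taken among called genes whose 6 arrays did not overlap between groups, were mostly secreted proteins and interferon-stimulated genes. Ccl7, a chemokine that attracts monocytes, led with log2 signals of 13.53, 13.54 and 13.08 in RE+GM cells, against 7.18, 6.18 and 6.22 in Mig+GM cells (116-fold, log2 change 6.85, SE 0.35, limma adjusted p = 8.32e-08). The related chemokines Ccl2 (12.78, 12.80 and 12.32 in RE+GM cells, against 7.01, 6.16 and 6.20 in Mig+GM cells) and Ccl12 (12.72, 12.72 and 12.40 in RE+GM cells, against 7.28, 6.10 and 6.30 in Mig+GM cells) were apart in the same way, at 72.4-fold and 66.6-fold. Isg15, a ubiquitin-like protein induced by interferon, was 13.22, 13.50 and 13.94 in RE+GM cells, against 6.96, 7.20 and 7.94 in Mig+GM cells (73-fold, log2 change 6.19, SE 0.24, limma adjusted p = 1.08e-08). Ifi27l2a and the guanylate-binding protein Gbp2, both interferon-induced, rose by 58.9-fold and 52.9-fold, although further Gbp2 probes rose by less (log2 changes 2.57 and 0.64). The RE+GM arrays of these genes lay close together and far above those of Mig+GM.

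Growth factors, peptides and surface proteins made up much of the rest. Mmp13, a collagenase, was 11.54, 12.13 and 12.34 in RE+GM cells, against 6.62, 6.40 and 6.21 in Mig+GM cells (48.4-fold, log2 change 5.60, SE 0.39, limma adjusted p = 6.94e-07), and its further probes rose by less (log2 changes 1.95 and 0.51). Vegfc, the lymphatic growth factor, was 11.71, 11.87 and 11.77 in RE+GM cells, against 6.14, 6.70 and 6.78 in Mig+GM cells (log2 change 5.25, SE 0.22, limma adjusted p = 1.58e-08). Igf1, insulin-like growth factor 1, was 11.59, 11.58 and 11.64 in RE+GM cells, against 6.67, 6.58 and 6.63 in Mig+GM cells (log2 change 4.98, SE 0.21, limma adjusted p = 2.08e-08). The Mig+GM arrays lay near background at all 3 genes. Nts, which encodes the peptide neurotensin, rose by 32.3-fold, with a dimmer probe at a log2 change of 0.41, and Grp, gastrin-releasing peptide, by at least 22.6-fold. Car4, a membrane carbonic anhydrase (38.2-fold), Cd59a, which protects cells from complement (41.4-fold), Amigo2, an adhesion protein (37-fold), and Rab15, a small GTPase of vesicle traffic (36.5-fold), were also in the group, as was Ubd, a ubiquitin-like protein of the inflammatory response (28.3-fold).

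The 20 largest falls, taken by the same rule, included genes of granulocytes, basophils and red cells. Prss34, a protease of basophil and mast cell granules, was 7.74, 9.70 and 9.08 in RE+GM cells, against 11.61, 12.78 and 12.18 in Mig+GM cells (log2 change -3.35, SE 0.46, limma adjusted p = 1.05e-04), and Mcpt8, another basophil protease, was 8.56, 10.20 and 9.76 in RE+GM cells, against 11.43, 12.29 and 11.95 in Mig+GM cells (log2 change -2.38, SE 0.38, limma adjusted p = 3.03e-04). Fcer1g, the signalling chain shared by several Fc receptors, was 9.14, 8.31 and 8.57 in RE+GM cells, against 12.42, 11.71 and 11.90 in Mig+GM cells (log2 change -3.34, SE 0.48, limma adjusted p = 1.38e-04). At the 2 proteases RE+GM replicate 1 was the lowest of the 6 arrays. Tfrc, the transferrin receptor that brings in iron, was 9.51, 9.49 and 9.68 in RE+GM cells, against 12.53, 12.96 and 12.69 in Mig+GM cells (log2 change -3.17, SE 0.17, limma adjusted p = 1.05e-07). Ms4a3, a granulocyte-monocyte progenitor gene (-2.64), Prtn3, neutrophil proteinase 3 (-2.44), Hp, haptoglobin (-2.25), and Alox5, which starts leukotriene synthesis (-2.48), fell (log2 changes). So did the semaphorin Sema4a (-2.74), the tetraspanin Tspan32 (-2.49), the chemokine Ccl24 (-2.36), the actin regulator Scin (-2.36), the myosin Myo1f (-2.33) and Klf1, the erythroid transcription factor (-2.19). The call of Ccl24 was lost without any 1 array but Mig+GM replicate 2 (limma adjusted p up to 0.156 over the alternatives), and that of Hp without RE+GM replicate 3 or Mig+GM replicate 1 (up to 0.0586). That of Ccl24 was also lost with median scaling, in the authors' normalized table and with no filter on dim probes.

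Many genes had more than 1 kept probe, and their probes differed in size. The brightest is used throughout. Of 93 named genes with several kept probes, 26 moved by over 1.5 times when the mean of the probes was taken, 25 of them to a smaller change. Among interferon-stimulated genes the log2 change then was 2.98 at Gbp2, 3.24 at Ifit3, 3.61 at Oasl1, 3.81 at Oasl2 and 1.61 at Oas3. Of secreted and surface proteins it was 2.69 at Mmp13, 2.71 at Nts, 2.91 at Cd59b, 2.70 at Il15, 1.30 at Pdgfb, 0.66 at Fas, 0.996 at Cd40, 2.11 at Sema7a, 1.98 at Slamf1, 2.06 at Egfl7 and 1.74 at Gja5. Of the rest it was 1.13 at Runx1t1, -0.86 at Cbfa2t3, 1.73 at Cdkn2a, 1.59 at Casp4, 1.07 at Bcl2l11, 1.11 at Gpnmb, -0.46 at Slc11a1, -1.12 at Ifitm1 and -0.80 at Bcat1. The exception was Irgm1, whose brightest probe was not called and whose mean was higher (1.58 at Irgm1).

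**Figure D2:**
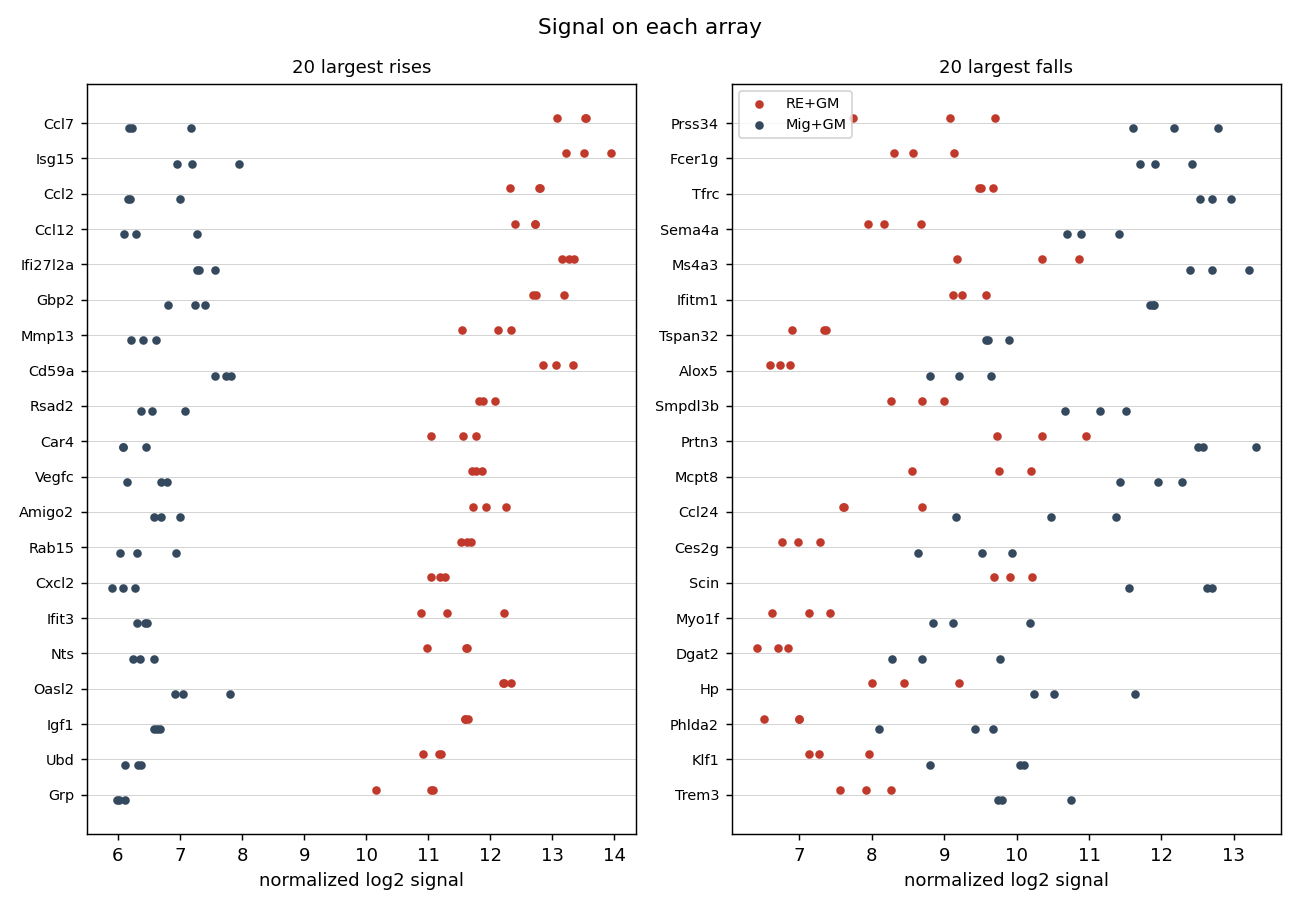
Normalized log2 signal on each array of the 20 named genes with the largest rise (left) and the 20 with the largest fall (right), RE+GM arrays in red above Mig+GM arrays in dark blue. In all 40 genes the groups do not overlap, as the choice of genes required.

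Interferon-stimulated genes rose nearly as a whole. Of the 53 tested members of the list, 49 were called higher and 0 lower, against 18.8% higher over all units, and their median log2 change was 2.02 (1.93 with 7 members at their lower bound). Oasl1, an antiviral sensor-like protein, was 10.71, 10.66 and 10.74 in RE+GM cells, against 5.96, 6.28 and 6.18 in Mig+GM cells (log2 change 4.56, SE 0.10, limma adjusted p = 1.98e-10). Irf7, the master transcription factor of type I interferon, was 10.23, 10.34 and 10.70 in RE+GM cells, against 6.40, 6.20 and 6.59 in Mig+GM cells (log2 change 4.02, SE 0.15, limma adjusted p = 9.45e-09). Rsad2, the antiviral enzyme viperin, was 11.88, 11.82 and 12.08 in RE+GM cells, against 6.38, 6.54 and 7.08 in Mig+GM cells (log2 change 5.26, SE 0.18, limma adjusted p = 7.98e-09). The groups were far apart at all 3 genes.

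Isg15, Ifi27l2a and Gbp2, given above, were the members with changes larger than all 3 of these. Oasl2 (4.998), Gbp3 (3.89), Irgm2 (3.14), Oas3 (2.97) and Trim30a (2.78), all antiviral or guanylate-binding proteins, rose (log2 changes), as did Ifit3, whose promoter is printed above, by 33.4-fold. The members not called were Trim25 (0.29, adjusted p = 0.155), Irgm1 (0.05, adjusted p = 0.771), Parp9 (-0.01, adjusted p = 0.953) and Iigp1 (0.01, adjusted p = 0.972), with Trim25 called in the fit with a replicate block (limma adjusted p = 0.0478), with median scaling and in the authors' table. Irgm1 depended on the probe: its dimmer probes rose (log2 changes 3.09 and 1.59), and it was called higher with the mean of its probes. The summed normalized signal of the list, on a linear scale, was 107000 to 128700 on RE+GM arrays and 24100 to 26200 on Mig+GM arrays. Interferon genes themselves were dim: Ifnb1, Ifna2, Ifna4 and Ifnk did not pass the filter, and Ifng was not called (0.09, limma adjusted p = 0.462). Of the receptor and kinase genes, Jak1 (0.72) and Jak2 (0.87) rose, and Ifngr1 (-0.93) and Ifnar2 (-0.51) fell (log2 changes). Jak1 was no longer called with median scaling or without any 1 array but Mig+GM replicate 2 (limma adjusted p up to 0.135).

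Genes that present antigen on MHC class I rose with them. Of 22 tested, 20 were called higher and 0 lower (median log2 change 1.23). H2-T23, a non-classical class I molecule, was 13.18, 13.25 and 13.15 in RE+GM cells, against 10.11, 10.29 and 10.49 in Mig+GM cells (log2 change 2.90, SE 0.12, limma adjusted p = 1.93e-08). B2m, the light chain of every class I molecule, was 14.88, 14.76 and 14.82 in RE+GM cells, against 13.65, 13.90 and 13.71 in Mig+GM cells (log2 change 1.06, SE 0.08, limma adjusted p = 1.81e-06), and the classical heavy chains H2-K1 (1.89) and H2-D1 (2.09), the peptide transporter Tap1 (2.15) and the class I transactivator Nlrc5 (1.56) rose as well (log2 changes). Probes of the H2 genes may bind transcripts of their close relatives, so that the split between them is uncertain. Of 15 MHC class II genes, 3 were called higher (20%, against 18.8% of all units) and 1 lower, and 0 were higher without RE+GM replicate 3, Mig+GM replicate 2 or Mig+GM replicate 3. Their median log2 change of 0.36 was 0.94 without Mig+GM replicate 1 and -0.18 without Mig+GM replicate 2. Their transactivator Ciita was not called (-0.45, limma adjusted p = 0.516), nor were Cd74 (0.52, adjusted p = 0.714) and H2-Aa (0.36, adjusted p = 0.807), while the costimulators Cd40 (1.80) and Cd86 (1.09) rose (log2 changes). Both calls were lost without RE+GM replicate 3, Mig+GM replicate 2 or Mig+GM replicate 3, and that of Cd86 also without RE+GM replicate 2 (limma adjusted p up to 0.066 and 0.151). With no filter on dim probes Cd86 was not called either. The class II list's summed signal ran over a wide range, 8979 to 12580 on RE+GM arrays and 4204 to 18090 on Mig+GM arrays.

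Receptors and adaptors that sense microbial products were split. Of 29 tested, 12 were called higher and 5 lower, and leaving out 1 array gave 8 (without Mig+GM replicate 2) to 15 (without Mig+GM replicate 1) higher and 3 or 4 lower. Tlr7, a sensor of single-stranded RNA, was 9.88, 9.82 and 9.76 in RE+GM cells, against 6.79, 6.63 and 6.54 in Mig+GM cells (log2 change 3.17, SE 0.11, limma adjusted p = 7.98e-09), and Tlr4 (1.21) with its partner Ly96 (1.32) rose, as did the inflammatory caspase Casp4 (2.18) and the transcription factor Irf5 (1.51) (log2 changes). The adaptor Tirap (-1.38), the inhibitory kinase Irak3 (-1.45) and the interferon activator Irf3 (-0.75) fell, and the DNA sensor gene Cgas fell slightly (-0.23), a call lost without any 1 array but RE+GM replicate 3 (limma adjusted p up to 0.24). The Cgas call was also lost with median scaling, in the authors' table and with only the 6 arrays compared.

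**Figure D3:**
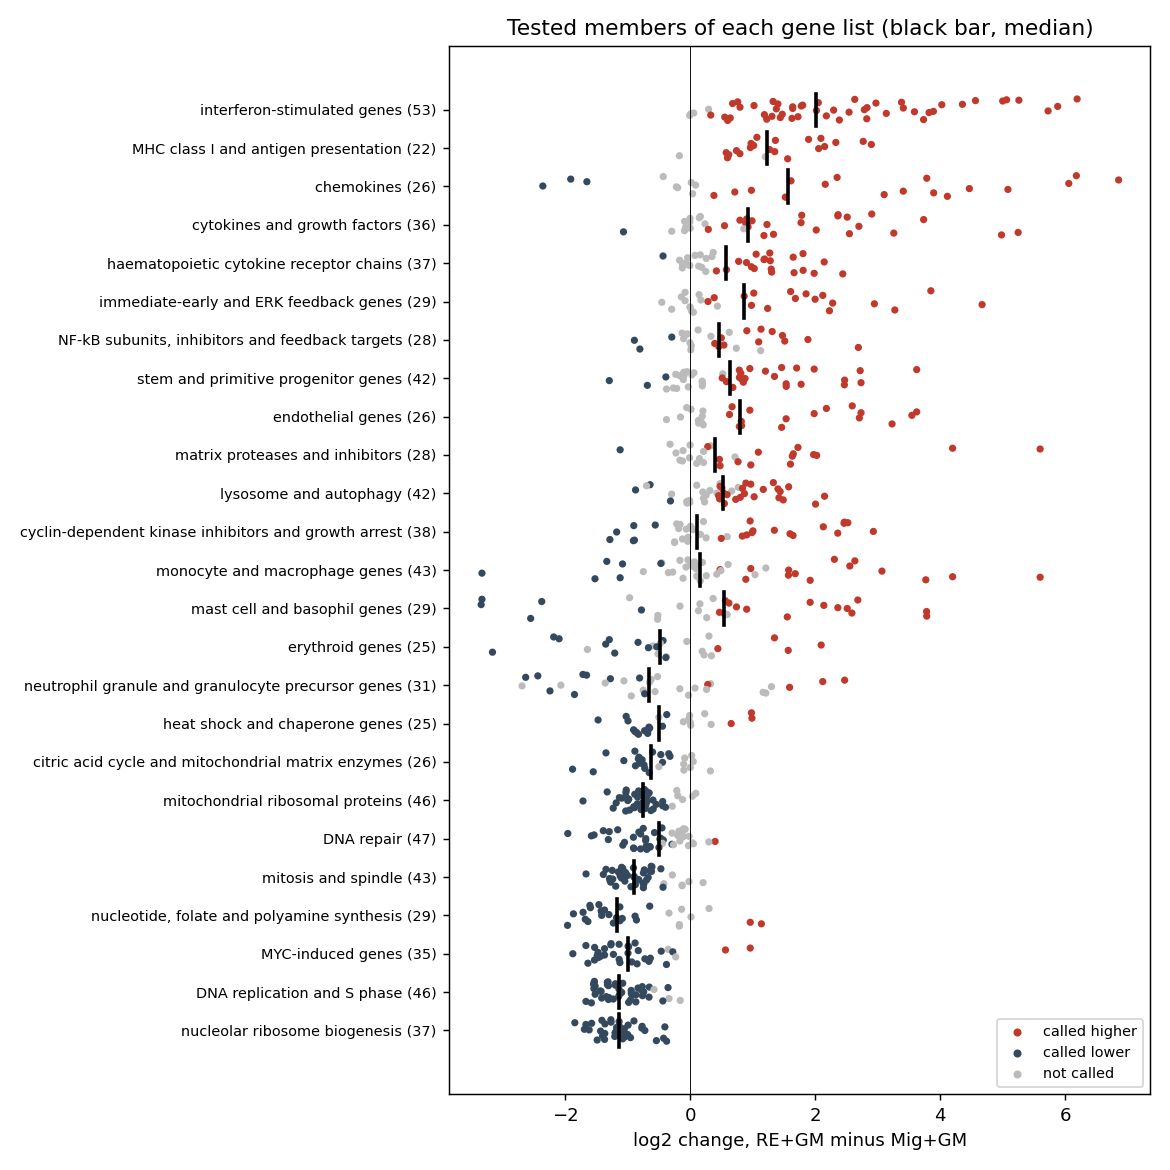
Log2 change (RE+GM minus Mig+GM) of each tested member of 25 gene lists, with the number tested in brackets and the median as a black bar. Red points were called higher, dark blue lower and grey neither, and the medians run from 2.02 for interferon-stimulated genes to -1.14 for ribosome biogenesis and -1.18 for nucleotide synthesis.

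Chemokines, which draw leukocytes to tissue, rose at 17 of 26 tested genes and fell at 3 (median log2 change 1.57, or 1.42 with 6 genes at their bound). Cxcl2, a neutrophil attractant, was 11.27, 11.05 and 11.19 in RE+GM cells, against 6.28, 5.91 and 6.08 in Mig+GM cells, at least 30.1-fold higher in RE+GM, and its relative Cxcl1 was 10.33, 10.02 and 11.04 in RE+GM cells, against 5.86, 6.13 and 6.01 in Mig+GM cells. Cxcl1 was thus higher by at least 18.5-fold (means in RE+GM and Mig+GM of 10.46 and 6.00 on the log2 scale, limma adjusted p = 3.85e-06). Cxcl10, an interferon-induced attractant of T cells, was 9.64, 9.70 and 10.79 in RE+GM cells, against 6.29, 6.02 and 6.14 in Mig+GM cells (log2 change 3.89, SE 0.29, limma adjusted p = 1.21e-06). Mig+GM arrays lay near background at the Cxcl2 probe and RE+GM arrays far above it. Ccl5 (3.78), Ccl4 (2.35) and Ppbp (4.11), the last of platelets, rose too (log2 changes). The 3 that fell were Ccl24 (-2.36), Ccl6 (-1.92) and Ccl9 (-1.66), and Ccl3 was not called (-0.44, limma adjusted p = 0.153). Of their receptors, 3 of 11 tested rose and 2 fell. The receptors for CXC chemokines Cxcr1 (2.66) and Cxcr2 (1.59) rose, and Cxcr4 (-1.34), which holds progenitors in the marrow, and Cx3cr1 (-1.09) fell (log2 changes).

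Other cytokine and growth factor genes rose at 24 of 36 tested and fell at 1, Vegfb (-1.07). Il15, a growth factor of NK cells, was 10.41, 10.39 and 10.80 in RE+GM cells, against 6.80, 6.81 and 6.79 in Mig+GM cells (log2 change 3.73, SE 0.14, limma adjusted p = 9.45e-09). The inflammatory cytokines Tnf (1.77) and Il1a (at least 7.01-fold) rose, as did Tgfb1 (2.01), Pdgfb (at least 5.41-fold) and the TNF relatives Tnfsf14 (2.70) and Tnfsf10 (0.91) (log2 changes). Csf2, the gene of GM-CSF itself, and Kitl, that of SCF, were under the filter. Cytokine receptor chains rose at 20 of 37 and fell at 1, Epor, the erythropoietin receptor (-0.44). That call was lost without RE+GM replicate 1 or 2 or Mig+GM replicate 2 or 3 (limma adjusted p up to 0.171). It was also lost with median scaling, in the authors' table, with no filter on dim probes and with only the 6 arrays compared. Those that rose included Il6st (1.65), the shared chain of the IL-6 family, Il2ra (1.18), Il13ra1 (2.14) and the death receptor Fas (1.29), and the TGF-beta family receptors Acvrl1 (at least 4.73-fold) and Eng (1.98) (log2 changes).

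Genes that answer receptor signals within hours rose in large part. Of 29 immediate-early and ERK feedback genes, 17 were called higher and 0 lower (median log2 change 0.86). Dusp2, a phosphatase that switches off MAP kinases, was 12.13, 12.27 and 11.68 in RE+GM cells, against 7.22, 7.28 and 7.58 in Mig+GM cells (log2 change 4.67, SE 0.20, limma adjusted p = 2.47e-08). Dusp1 (2.94), the AP-1 subunit Junb (1.85), the transcription factor Klf6 (2.28), Atf3 (1.996) and the mRNA decay protein Zfp36 (2.23) also rose, while Dusp6, another ERK feedback gene, was not called (0.43, limma adjusted p = 0.207). STAT5 target and feedback genes rose at 11 of 26 and fell at 3. The feedback inhibitors Socs2 (2.24), Socs3 (1.77) and Cish (1.19) and the survival gene Bcl2l1 (1.91) rose, whereas Bcl2 (-1.05), Pim3 (-1.04) and Ccnd3 (-0.83) fell (log2 changes). Of 28 NF-kB genes, 13 rose and 3 fell, or 1 without RE+GM replicate 2 or 3. The adhesion molecule Icam1 was 10.77, 10.94 and 11.04 in RE+GM cells, against 8.65, 7.99 and 8.04 in Mig+GM cells (log2 change 2.69, SE 0.24, limma adjusted p = 4.96e-06), and the subunits Nfkb2 (1.13), Rela (0.90) and Relb (1.31) and the inhibitor Tnfaip3 (1.88) rose as well, while Nfkbia, the first inhibitor of the pathway, was not called (0.62, limma adjusted p = 0.129) except with a replicate block (adjusted p = 0.00195) or without Mig+GM replicate 1.

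Genes for DNA replication and S phase fell almost throughout. Of 46 tested, 43 were called lower and 0 higher, against 23.4% lower over all units, and their median log2 change was -1.14. Mcm5, a subunit of the replicative helicase, was 10.48, 10.30 and 10.34 in RE+GM cells, against 11.75, 12.06 and 11.94 in Mig+GM cells (log2 change -1.54, SE 0.12, limma adjusted p = 1.32e-06), and Mcm6, whose promoter is printed above, was 11.27, 11.50 and 11.42 in RE+GM cells, against 12.37, 12.64 and 12.42 in Mig+GM cells (log2 change -1.08, SE 0.12, limma adjusted p = 1.99e-05), though a further Mcm6 probe was not called. Cdt1, which loads the helicase, was 9.61, 9.66 and 9.57 in RE+GM cells, against 10.87, 11.31 and 11.24 in Mig+GM cells (log2 change -1.53, SE 0.12, limma adjusted p = 1.81e-06). At these 3 genes all RE+GM arrays lay under all Mig+GM arrays. Cdc45 (-1.31), Cdc6 (-1.33), Rfc5 (-1.43) and the transcription factor E2f2 (-1.67) fell too, and the 3 not called were Pcna (-0.58, adjusted p = 0.052), Tyms (-0.34, adjusted p = 0.175) and Chaf1b (-0.16, adjusted p = 0.322) (log2 changes). With a replicate block, limma called Pcna and Tyms lower (adjusted p = 0.0337 and 0.0325), and Pcna was also called without Mig+GM replicate 1 or 3.

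Mitotic genes followed at 37 of 43, with 0 higher (median log2 change -0.90). Birc5, a member of the chromosomal passenger complex, was 9.84, 9.46 and 9.72 in RE+GM cells, against 10.86, 11.07 and 10.99 in Mig+GM cells (log2 change -1.29, SE 0.11, limma adjusted p = 3.59e-06), and the spindle kinesin Kif11 (-1.09), the checkpoint gene Mad2l1 (-1.35) and the centromere histone Cenpa (-1.25) fell as well (log2 changes). DNA repair genes fell at 29 of 47 and rose at 1, Ercc1 (0.40), a call lost without RE+GM replicate 1 or 3 or Mig+GM replicate 1 or 3. Msh6, of mismatch repair, was 9.23, 9.40 and 9.39 in RE+GM cells, against 11.06, 11.48 and 11.37 in Mig+GM cells (log2 change -1.96, SE 0.14, limma adjusted p = 8.10e-07), and Apex1 (-1.54), Atm (-1.30) and Mre11a (-1.39) fell (log2 changes).

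Inhibitors of the cell cycle moved the other way in part: 15 of 38 rose and 6 fell. Cdkn2b, which blocks CDK4 and CDK6, was 8.87, 9.01 and 8.96 in RE+GM cells, against 6.36, 6.44 and 6.66 in Mig+GM cells (log2 change 2.46, SE 0.13, limma adjusted p = 7.23e-08). Cdkn2a, the gene of p16 and p19ARF, was 8.29, 8.90 and 8.66 in RE+GM cells, against 5.94, 6.30 and 6.06 in Mig+GM cells (log2 change 2.52, SE 0.16, limma adjusted p = 3.35e-07), and its further probe rose by 0.93. Cdkn1c, which keeps stem cells quiescent, was 8.89, 9.03 and 9.66 in RE+GM cells, against 6.499, 6.59 and 7.11 in Mig+GM cells (log2 change 2.46, SE 0.30, limma adjusted p = 4.25e-05). The groups lay apart at each. Cdkn1a (0.96), Gadd45g (2.93), Btg1 (2.13) and Rprm (2.36) rose too, Cdkn1b was not called (0.21, limma adjusted p = 0.204), and Ccng1 (-1.18), Zmat3 (-1.29) and Phlda3 (-0.90) fell (log2 changes).

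Genes that MYC induces fell at 31 of 35 and rose at 2, Odc1 (0.96) and Ccnd2 (0.56) (median log2 change -0.999). The call of Ccnd2 was lost without RE+GM replicate 1 or Mig+GM replicate 3. Myc itself was 6.89, 7.32 and 7.17 in RE+GM cells, against 7.62, 7.68 and 8.16 in Mig+GM cells (log2 change -0.70, SE 0.19, limma adjusted p = 0.00941), a smaller fall than that of most of the list. Of its antagonists, Mxd4 (1.43) and Mxi1 (1.36) rose (log2 changes). In the MYC, MAX and MXD network, 3 of 11 tested genes were called higher (27.3%, against 18.8% of all units). Of the rest, 2 were lower (18.2%, against 23.4% of all units) and 6 neither, so these counts do not set the network apart from the array. The nucleolar genes that build ribosomes fell at 37 of 37 tested (median -1.14). Nhp2, a part of the RNA-modifying H/ACA particle, was 11.02, 11.02 and 10.92 in RE+GM cells, against 12.52, 12.72 and 12.46 in Mig+GM cells (log2 change -1.58, SE 0.12, limma adjusted p = 1.22e-06), and Nop58, of the C/D particle, was 10.95, 10.84 and 10.99 in RE+GM cells, against 12.19, 12.20 and 12.20 in Mig+GM cells (log2 change -1.27, SE 0.09, limma adjusted p = 1.30e-06). Both were lower on every RE+GM array than on any Mig+GM array. The proteins of the finished cytosolic ribosome were called lower at 9 of 39 and higher at 0, 23.1% against 23.4% of all units, at a median of -0.15, which was 0.003 in the authors' normalized table. The number lower was 5 in that table and without RE+GM replicate 1, and 13 with median scaling or the mean of probes.

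Metabolic genes fell with them. Of 29 tested for nucleotide, folate and polyamine synthesis, 21 fell and 2 rose (median log2 change -1.18). Dtymk, which makes dTDP, was 9.66, 9.60 and 9.67 in RE+GM cells, against 11.42, 11.61 and 11.51 in Mig+GM cells (log2 change -1.87, SE 0.12, limma adjusted p = 3.35e-07), and Slc19a1, the folate carrier, was 7.85, 7.58 and 7.54 in RE+GM cells, against 9.44, 9.77 and 9.66 in Mig+GM cells (log2 change -1.97, SE 0.18, limma adjusted p = 4.74e-06). The 2 that rose were Odc1 (0.96) and the polyamine-degrading Sat1 (1.14), and Sat1 was not called without Mig+GM replicate 2. Mitochondrial ribosomal proteins fell at 40 of 46 and rose at 0 (median -0.76), citric acid cycle and matrix enzymes at 18 of 26 and 0 (median -0.63), and respiratory chain genes at 29 of 59 and 1 (median -0.37), or 19 and 5 in the authors' table. Idh3a (-1.35) was among the matrix enzymes that fell, and Bcat1 (-1.89), which transfers amino groups of branched-chain amino acids, was lower too. Chaperones fell at 14 of 25, led by the mitochondrial Hspd1 (-1.48) and Hspa9 (-1.03), and the inducible Hspa1a (at least 1.56-fold) and Hspb1 (0.99) rose (log2 changes). Cholesterol genes fell at 12 of 25 and rose at 4, with Lss (-1.64) and Dhcr7 (-1.39) of the synthetic route lower and Npc2 (1.44), which exports cholesterol from lysosomes, higher.

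Lysosome and autophagy genes rose at 23 of 42 and fell at 3 (median log2 change 0.51), and 1 was lower without RE+GM replicate 2, RE+GM replicate 3, Mig+GM replicate 1 or Mig+GM replicate 3. Sqstm1, the autophagy receptor p62, was 12.17, 12.22 and 11.68 in RE+GM cells, against 9.85, 9.67 and 10.11 in Mig+GM cells (log2 change 2.15, SE 0.17, limma adjusted p = 1.90e-06), and the granulin precursor Grn (2.003), the membrane protein Lamp1 (1.33) and the galactosidase Glb1 (1.40) rose. Of 43 stress response genes 10 were called higher and 10 lower, 23.3% each, near the 18.8% and 23.4% of all units, and the replicate block gave 16 and 10. Ddit3, the factor CHOP, was 10.32, 10.38 and 10.75 in RE+GM cells, against 7.28, 7.39 and 7.51 in Mig+GM cells (log2 change 3.08, SE 0.17, limma adjusted p = 1.71e-07), and the ER chaperone gene Dnajb9 (2.41), Edem1 (2.30), Ppp1r15a (1.93) and Xbp1 (1.03) rose, while the amino acid genes Phgdh (-1.58), Psat1 (-1.43), Asns (-1.39) and Slc7a5 (-1.23) fell (log2 changes). Of 34 oxidative stress genes 10 were higher and 10 lower (29.4% each), with the metallothioneins Mt1 (1.45) and Mt2 (1.92) and Txnip (1.77) higher and Gclm (-1.81), of glutathione synthesis, and Ncf1 (-1.23), of the phagocyte oxidase, lower. Of 17 BCL2 family genes 6 rose (35.3%, against 18.8% of all units) and 2 fell (11.8%, against 23.4%). Those that rose included the survival gene Bcl2l1 (1.91) and the death-promoting Bcl2l11 (1.70) and Bad (1.08). Bcl2 (-1.05) was 1 of the 2 that fell (log2 changes).

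Neutrophil genes did not move as 1 block. Of 31 tested, 9 were called lower (29.0%, against 23.4% of all units) and 4 higher. Without RE+GM replicate 1 or 2 or Mig+GM replicate 2 or 3 there were 2 higher, and without Mig+GM replicate 1 the numbers were 7 and 5 and the median was -0.20 in place of -0.66. Mpo, the granule peroxidase, was 12.22, 12.32 and 11.54 in RE+GM cells, against 14.02, 13.86 and 13.36 in Mig+GM cells (log2 change -1.72, SE 0.35, limma adjusted p = 0.00165), and Elane, neutrophil elastase, was 10.92, 10.42 and 9.99 in RE+GM cells, against 13.07, 11.47 and 11.78 in Mig+GM cells (log2 change -1.66, SE 0.57, limma adjusted p = 0.0345). Both were lower on all RE+GM arrays, and Ctsg, a further granule protease, was not called (13.29, 13.32 and 12.76 in RE+GM cells, against 13.97, 13.52 and 13.45 in Mig+GM cells, log2 change -0.53, limma adjusted p = 0.101, or 0.0166 with a replicate block). The call of Elane was lost without RE+GM replicate 2 or 3 or Mig+GM replicate 1 (limma adjusted p up to 0.137). It was also lost with median scaling and in the authors' table. Gfi1, a repressor that directs granulocyte precursors, rose (11.33, 11.45 and 10.93 in RE+GM cells, against 9.05, 8.70 and 8.56 in Mig+GM cells, log2 change 2.47, SE 0.27, limma adjusted p = 2.07e-05), as did Lcn2, a secondary granule protein (11.91, 11.86 and 10.62 in RE+GM cells, against 10.74, 8.92 and 8.38 in Mig+GM cells, log2 change 2.12, SE 0.67, limma adjusted p = 0.0229), where Mig+GM replicate 1 overlapped the lowest RE+GM array. The Lcn2 call was lost without RE+GM replicate 1 or 2 or Mig+GM replicate 2 or 3 (limma adjusted p up to 0.0938). The list's summed normalized signal was 27460 to 47770 on RE+GM arrays and 48120 to 131900 on Mig+GM arrays. With the replicate number as a block, 14 neutrophil genes were called lower and 5 higher.

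Monocyte and macrophage genes rose at 14 of 43 and fell at 6, and their median log2 change of 0.16 was 0.40 without Mig+GM replicate 1. Adgre1, the macrophage marker F4/80, was 12.51, 12.91 and 12.19 in RE+GM cells, against 10.72, 9.92 and 10.06 in Mig+GM cells (log2 change 2.30, SE 0.34, limma adjusted p = 1.69e-04), and Fcgr3, a low-affinity Fc receptor, was 12.47, 12.34 and 11.78 in RE+GM cells, against 10.32, 9.01 and 9.36 in Mig+GM cells (log2 change 2.63, SE 0.33, limma adjusted p = 4.93e-05). Mmp12, the macrophage elastase, was 11.68, 11.97 and 11.75 in RE+GM cells, against 9.09, 6.91 and 6.82 in Mig+GM cells (log2 change 4.196, SE 0.65, limma adjusted p = 2.39e-04), with Mig+GM replicate 1 well above the other controls. Gpnmb (3.07), Ms4a6d (3.77) and the receptor kinase Axl (2.55) rose, and the transcription factor Spi1 (-0.47) (PU.1), the metal transporter Slc11a1 (-1.53) and Fcgr4 (-1.34) fell (log2 changes). The call of Spi1 was lost without RE+GM replicate 1 or 2 or Mig+GM replicate 1 or 3 (limma adjusted p up to 0.137). It was also lost with median scaling and in the authors' table. The lysozyme gene Lyz2 was not called (1.21, limma adjusted p = 0.23), and Ccr2, Cd36, Cd163 and Msr1 were under the filter. The list's summed signal was 48600 to 58010 on RE+GM arrays and 20360 to 42420 on Mig+GM arrays.

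Mast cell and basophil genes rose at 15 of 29 tested and fell at 5. Cpa3, a mast cell protease, was 14.11, 14.31 and 14.19 in RE+GM cells, against 11.02, 11.78 and 11.76 in Mig+GM cells (log2 change 2.68, SE 0.18, limma adjusted p = 5.98e-07), and Hdc, which makes histamine, was 14.80, 14.93 and 15.05 in RE+GM cells, against 12.31, 12.76 and 13.30 in Mig+GM cells (log2 change 2.14, SE 0.22, limma adjusted p = 1.06e-05). Tph1, of serotonin synthesis, was 10.82, 10.13 and 11.60 in RE+GM cells, against 6.42, 6.65 and 8.13 in Mig+GM cells (log2 change 3.78, SE 0.57, limma adjusted p = 1.99e-04), and the cytokine Il4 (2.36) and the surface protein Cd200r3 (2.58) rose. Prss34 and Mcpt8, given above, and Ifitm1 (-2.56) fell, and the chains of the IgE receptor other than Fcer1g were not called (Ms4a2 (0.36, adjusted p = 0.26) and Fcer1a (-0.97, adjusted p = 0.128)), although limma called Fcer1a lower with a replicate block (adjusted p = 0.0116) and Ms4a2 higher without RE+GM replicate 1. The summed signal of the list was 98380 to 104400 on RE+GM arrays and 60530 to 67450 on Mig+GM arrays.

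Erythroid genes fell at 11 of 25 and rose at 4. Klf1 was 7.14, 7.28 and 7.96 in RE+GM cells, against 8.80, 10.04 and 10.11 in Mig+GM cells (log2 change -2.19, SE 0.34, limma adjusted p = 2.50e-04), and Nfe2, a factor of red cells and platelets, was 9.71, 9.65 and 9.15 in RE+GM cells, against 11.35, 11.81 and 11.66 in Mig+GM cells (log2 change -2.10, SE 0.26, limma adjusted p = 4.67e-05), both without overlap. Gfi1b (-1.30) fell, Hba-a1 was not called (7.17, 7.23 and 9.54 in RE+GM cells, against 8.72, 9.51 and 10.66 in Mig+GM cells, log2 change -1.65, limma adjusted p = 0.0624, or 0.0081 with a replicate block), and Hbb-b2 and Tal1 rose (1.57 and 1.35). In a separate list of 25 heme synthesis and iron handling genes, 11 fell (44.0%, against 23.4% of all units) and 2 rose (8.0%, against 18.8%). Slc40a1 (-2.002) and the heme synthesis gene Alad (-1.60) were among those lower (log2 changes). The summed signal of the erythroid list was 24310 to 27930 on RE+GM arrays and 24860 to 38900 on Mig+GM arrays, and without Mig+GM replicate 1 the list had 16 genes lower. Megakaryocyte genes rose at 8 of 24 and fell at 6 (25.0%, against 23.4% of all units), or 3 without RE+GM replicate 1 or Mig+GM replicate 2, with Pf4 (1.52), Treml1 (2.65) and Thbs1 (at least 2.17-fold) higher and the platelet integrin Itga2b (-1.37) and Gp9 (-1.21) lower (log2 changes). Itga2b was not called without RE+GM replicate 1 or Mig+GM replicate 2, and Hba-a1 was called lower without RE+GM replicate 3 or Mig+GM replicate 1.

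**Figure D4:**
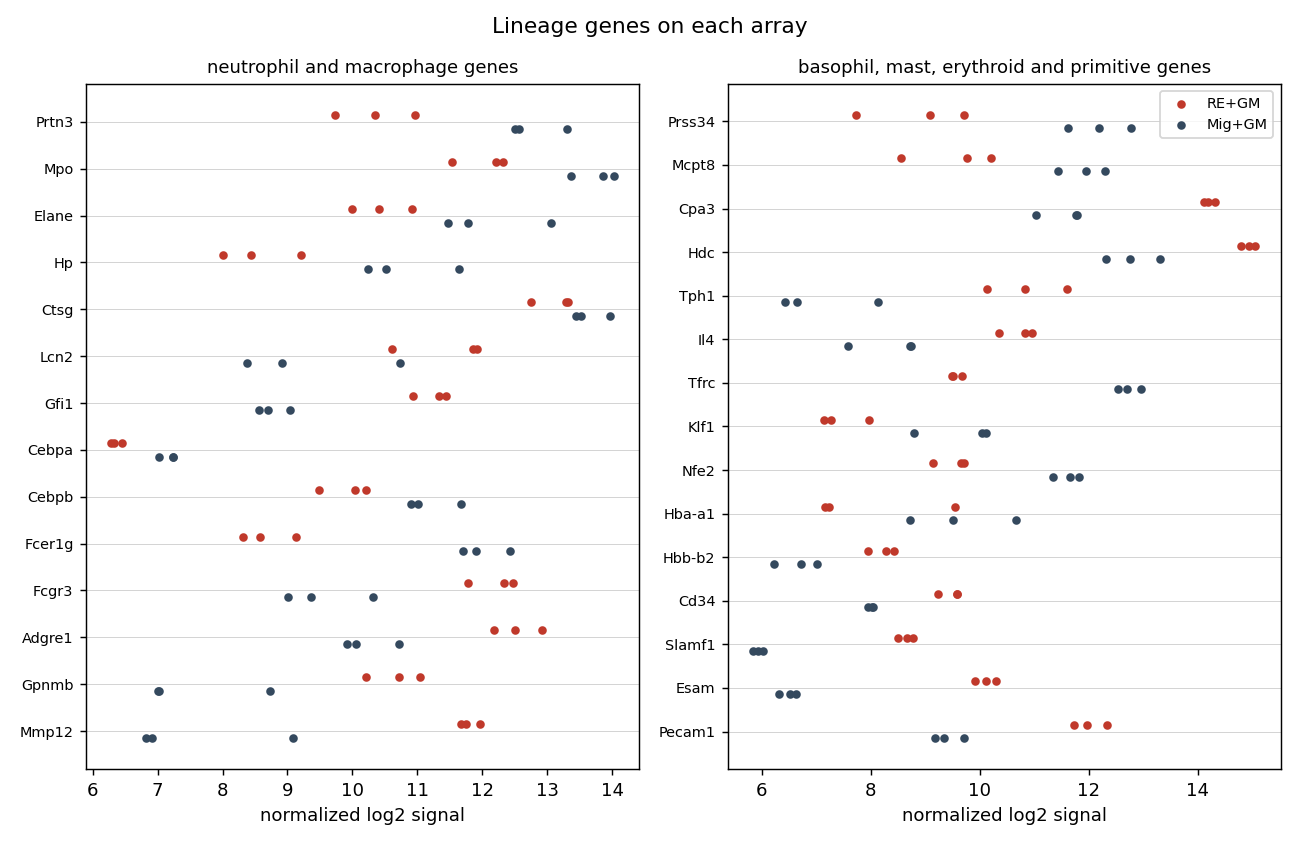
Normalized log2 signal on each array for genes of neutrophils and macrophages (left) and of basophils, mast cells, red cells and primitive progenitors (right), RE+GM arrays in red above Mig+GM arrays in dark blue. The granule genes Prtn3, Mpo and Elane are lower in RE+GM and Cpa3, Hdc, Slamf1 and Esam higher, while Ctsg and Hba-a1 were not called. The call of Elane was lost under some alternatives.

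Genes of stem and primitive progenitors rose at 23 of 42 and fell at 3 (median log2 change 0.63). Cd34, a progenitor surface protein, was 9.58, 9.57 and 9.24 in RE+GM cells, against 7.94, 8.03 and 8.05 in Mig+GM cells (log2 change 1.46, SE 0.11, limma adjusted p = 1.68e-06). Slamf1, a marker used to sort stem cells, was 8.67, 8.50 and 8.77 in RE+GM cells, against 5.84, 5.93 and 6.02 in Mig+GM cells, and it was higher by at least 5.24-fold (means in RE+GM and Mig+GM of 8.65 and 5.93 on the log2 scale, limma adjusted p = 1.30e-06). Hoxa9, a homeobox gene of stem cells and leukaemia, was not called (-0.23, limma adjusted p = 0.187, or 0.0467 with a replicate block), and the factor Lmo2 fell (-0.39), a call lost in the authors' table (adjusted p = 0.207), where 1 gene of the list was lower. Endothelial genes rose at 16 of 26 and fell at 0 (median 0.80, or 0.73 with 6 genes at their bound), while 1 was lower without Mig+GM replicate 1. Esam, an adhesion protein of endothelium and stem cells, was 10.29, 9.91 and 10.11 in RE+GM cells, against 6.31, 6.51 and 6.62 in Mig+GM cells (log2 change 3.62, SE 0.13, limma adjusted p = 9.29e-09), and Pecam1, CD31, was 11.96, 12.33 and 11.73 in RE+GM cells, against 9.72, 9.19 and 9.35 in Mig+GM cells (log2 change 2.59, SE 0.38, limma adjusted p = 1.66e-04). Egfl7 (2.73), Flt1 (2.18), Ramp2 (3.55) and the transcription factor Sox7 (at least 5.67-fold) rose, whereas Vwf, Tie1, Nos3 and Robo4 were not called (log2 changes -0.38, 0.20, 0.13 and 0.19). The summed signal of the endothelial list was 22110 to 25030 on RE+GM arrays and 5735 to 6004 on Mig+GM arrays. Of 27 stromal genes on the array, 12 were under the filter, among them the collagens Col1a1 and Col3a1. Of the 15 tested, 6 rose, led by Sparc (at least 11.8-fold), and 2 fell (median log2 change 0.006). Whether cells of another kind had a part in these values was not tested.

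Matrix proteases and their inhibitors rose at 14 of 28 and fell at 1, Mmp14 (-1.12). The plasminogen activator Plau was 8.29, 8.43 and 8.19 in RE+GM cells, against 6.30, 6.37 and 6.32 in Mig+GM cells (log2 change 1.97, SE 0.21, limma adjusted p = 1.36e-05), and its receptor Plaur (2.02), Mmp10 (at least 2.94-fold) and the inhibitors Timp1 (1.09) and Timp3 (1.65) rose. Adhesion genes rose at 21 of 42 and fell at 8, with the integrin alpha 6 chain Itga6 (2.40), F11r (2.70) and Cd151 (2.18) higher and the selectin ligand Selplg (-1.87), Itgb7 (-1.78) and Cd9 (-1.41) lower (log2 changes). Of 18 complement genes 5 rose and 1 fell. Cd59b, a regulator like Cd59a, was 11.49, 11.21 and 11.10 in RE+GM cells, against 6.42, 6.75 and 6.65 in Mig+GM cells (log2 change 4.66, SE 0.16, limma adjusted p = 7.98e-09), and Cd55 (2.40) and Cfb (at least 3.67-fold) rose. In the leukotriene pathway 8 of 21 rose and 4 fell: the synthetic genes Alox5 (-2.48), Alox5ap (-1.23) and Lta4h (-0.68) were lower, and the receptor Ltb4r1 was higher (2.68). Without Mig+GM replicate 1, 6 genes of this list were lower.

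Transcription factors of blood cells rose at 21 of 54 and fell at 10. Cebpa, the factor that myeloid maturation needs, was 6.45, 6.32 and 6.29 in RE+GM cells, against 7.02, 7.24 and 7.24 in Mig+GM cells (log2 change -0.81, SE 0.12, limma adjusted p = 1.59e-04). Cebpb was 10.22, 10.05 and 9.48 in RE+GM cells, against 11.68, 10.91 and 11.004 in Mig+GM cells (log2 change -1.28, SE 0.28, limma adjusted p = 0.00292). Gata3, a T cell and stem cell factor, was 7.99, 8.25 and 7.90 in RE+GM cells, against 6.26, 6.23 and 6.24 in Mig+GM cells (log2 change 1.81, SE 0.12, limma adjusted p = 3.96e-07). RE+GM arrays were all lower at the CEBP genes and all higher at Gata3. Hhex (1.19), Etv6 (0.82), Lyl1 (0.78) and Batf (1.53) rose, and Pparg (-1.68), Batf3 (-1.27) and Ikzf1 (-0.53) fell (log2 changes). The call of Ikzf1 was lost with the mean of its probes (limma adjusted p = 0.0504).

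Whether GM-CSF altered the effect of RUNX1-ETO was tested as the difference between RE+GM minus Mig+GM and RE minus Mig. Limma called 32 of 12097 units (0.265%), all with a more positive change under GM-CSF in this fit, 29 of them named genes. The count varied with the arrays used, and leaving out 1 array at a time gave 8 (without Mig replicate 1) to 180 (without RE replicate 3), while a replicate block gave 74. Of the 180, 36 were negative, and of the 74, 11. The RE arrays differed among themselves. RE replicate 3 correlated at 0.9865 to 0.9913 with the RE+GM arrays, at 0.987 with RE replicate 2 and at 0.9722 with RE replicate 1. On the second principal component RE replicates 1, 2 and 3 lay at -34.05, -15.26 and 3.09, and the RE+GM arrays at 10.39 to 14.69. Ppbp, a platelet chemokine, had log2 signals of 11.22, 12.26 and 10.18 in RE+GM cells, against 6.47, 7.07 and 7.78 in Mig+GM cells. Without GM-CSF they were 6.56, 6.88 and 7.29 in RE cells, against 8.10, 7.45 and 7.31 in Mig cells (difference of the log2 changes 4.82, SE 0.66, limma adjusted p = 0.0135). Mmp13 was 9.49, 8.39 and 9.52 in RE cells, against 7.72, 6.67 and 6.18 in Mig cells without GM-CSF (difference of the log2 changes 3.32, SE 0.55, limma adjusted p = 0.041). Cdkn2a was 6.04, 6.30 and 6.43 in RE cells, against 6.06, 6.24 and 6.04 in Mig cells (difference of the log2 changes 2.38, SE 0.22, limma adjusted p = 7.50e-04), and Cdkn2b was 6.94, 6.995 and 7.36 in RE cells, against 6.59, 6.39 and 6.65 in Mig cells (difference of the log2 changes 1.91, SE 0.18, limma adjusted p = 7.50e-04). At all 4 genes the lowest RE+GM array lay above every array of the other 3 groups.

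The others with the largest differences were Grp, Nts, Car4, the homeobox gene Irx3, the neutrophil chemokine Cxcl5 and the gap junction gene Gja5, each low in the 3 other groups compared with RE+GM. Differences of the log2 changes were Grp (4.29), Nts (3.69), Car4 (3.53), Irx3 (3.16), Cxcl5 (2.90) and Gja5 (2.45). Grp, Irx3 and Cxcl5 did not exceed background on any Mig+GM array, so that these differences rest in part on values at background. Sema7a, Ltb4r1, the caveolar gene Cav1, Tnfsf4, Tnfrsf11b, Apoe and Hbegf were also called (Sema7a (2.41), Ltb4r1 (2.40), Cav1 (2.39), Tnfsf4 (2.10), Tnfrsf11b (1.94), Apoe (1.47) and Hbegf (0.88)). Of the interferon-stimulated, replication, mitotic and ribosome biogenesis lists, 0 tested members were called by limma in this test. In the same order, 11 of 53, 4 of 46, 0 of 43 and 7 of 37 had an unadjusted p under 0.05, against 1125 of all 12097 units. Of 26 chemokines 2 were called and 11 had an unadjusted p under 0.05, and of 36 cytokines and growth factors 1 and 13. The chemokine median was 1.57 with GM-CSF and 0.26 without it, with 17 and 11 called higher. Cytokines and growth factors were called higher at 24 with GM-CSF and at 16 without it. Without GM-CSF, 51 of the 53 interferon genes and 0 of the replication genes were higher in RE than in Mig, and 42 of 46 replication genes were lower. Over all 12097 units, 2127 were called higher and 2443 lower in RE than in Mig. For Isg15 the log2 change was 6.19 with GM-CSF and 6.28 without it.

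**Figure D5:**
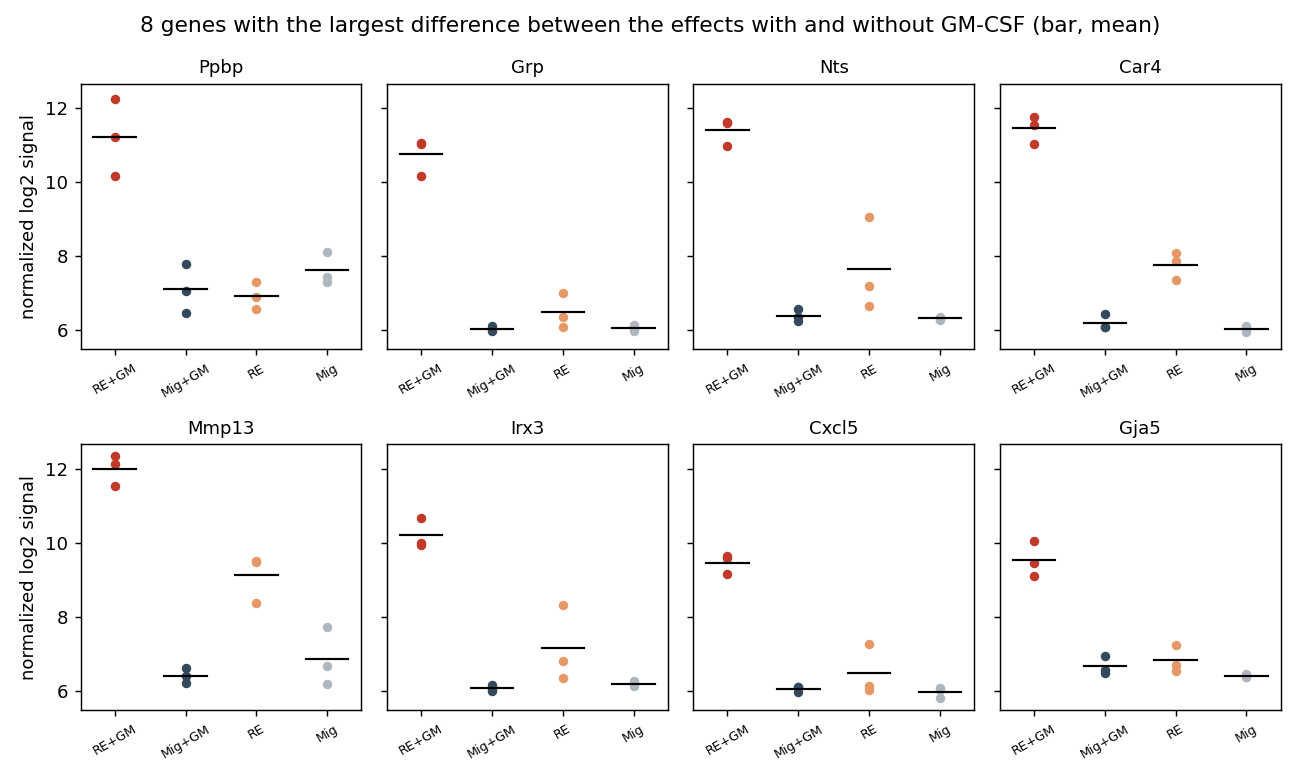
Normalized log2 signal on each array (points) and group mean (bars) in RE+GM, Mig+GM, RE and Mig for the 8 genes with the largest called difference between the effects. RE+GM arrays are the highest of the 4 groups in each panel.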

How the data were processed

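The arrays were Illumina Mouse Ref-8 v2.0 BeadChips hybridized with biotin-labelled total RNA, per the labels' protocols. The authors deposited bead-summarized signal intensity before normalization, on a linear scale and without detection p-values, and a table of intensity that the authors normalized between arrays. The software and method behind both are not given in the sources used here. No column of values was left unused.

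The deposited intensity was read into limma 3.58.1 under R 4.3.3, where normexp correction with an offset of 50 and quantile normalization preceded the log2 transformation. Fold changes of dim probes are made smaller by the offset. With no detection p-values, a probe was kept where its signal was above a background estimated from the mode and lower flank of each array, with a p threshold of 0.05, for a minimum of 3 arrays. This filter was chosen after seeing the files and kept 16361 probes. Each gene was represented by its brightest kept probe. A group-means model over 12 arrays was fitted (lmFit, eBayes), and two-sided p-values were adjusted by Benjamini-Hochberg over all 12097 units, with a threshold of 0.05. Errors beside log2 changes are the model's standard errors, and a gene that no array of a group shows above background has a lower bound of its fold. Genes were named as the targeted gene, the 20 largest rises and falls among called genes without overlap of the groups' arrays, the 8 largest differences with GM-CSF, and list members by smallest p. A few further genes called in that last test were named after their values were seen. The members and gene lists were chosen with earlier results of these data known.

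Arrays with the same replicate number deviated together from their group means (r = 0.315, 0.216 and 0.43 across units between RE+GM and Mig+GM, against -0.352 to 0.06 for other pairs), so the replicate block is given where it altered a call. The labels give the numbers but no batch. Promoters were taken from RefSeq (GRCm38.p6), matched by symbol, with 11 motifs searched in the 250 bases before each start. Alternatives were another scaling, background correction, offset, filter and probe rule, the authors' table, only 6 arrays, the replicate block, a minimum fold change of 1.5 and each array left out. The fit was tested on simulated data. Figures were drawn with matplotlib 3.10.9.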

Additional observations from a re-analysis of the deposited data

Results flagged for a closer look

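The effect of RUNX1-ETO under GM-CSF differed from that without it at 32 units by limma's interaction contrast at an adjusted p under 0.05, and at 1125 units at an unadjusted p under 0.05. All values below are differences of log2 changes, RE+GM minus Mig+GM less RE minus Mig, and all are positive. They were largest at Ppbp (4.82), Grp (4.29), Nts (3.69), Car4 (3.53), Mmp13 (3.32) and Irx3 (3.16). Next came Cxcl5 (2.90), Gja5 (2.45), Sema7a (2.41), Ltb4r1 (2.40), Cav1 (2.39) and Cdkn2a (2.38). The rest named were Tnfsf4 (2.10), Tnfrsf11b (1.94), Cdkn2b (1.91), Apoe (1.47) and Hbegf (0.88). All 32 units kept a positive difference under each alternative run, though 8 (without Mig replicate 1) to 32 of them were called.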

How the results depend on the processing

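The numbers of units called higher (2274) and lower (2827) stayed within 1.5 times under all alternatives except a minimum fold change of 1.5, which left 825 higher and 688 lower. Leaving out 1 array at a time gave 1988 to 2153 higher and 2447 to 2733 lower, and the replicate block gave 2540 and 3127. The number whose effect differed with GM-CSF (32) was 12 with median scaling, 18 with an offset of 16, 74 with the replicate block (11 of them negative) and 8 with the minimum fold change. Leaving out 1 array gave 8 to 180 (36 of the 180 negative): 20, 10 and 24 without RE+GM replicates 1, 2 and 3, 20, 16 and 10 without those of Mig+GM, 14, 10 and 180 without those of RE, and 8, 11 and 18 without those of Mig. The cause was not tested. The median of cytosolic ribosomal proteins (-0.15) was 0.00311 in the authors' table, and that of lymphoid genes (-0.048) was 0.0156 with the stricter filter and between -0.081 (without Mig+GM replicate 2) and 0.0119 (without Mig+GM replicate 1) when 1 array was left out. Of the genes named, 18 lost and 13 gained a call under at least 1 alternative other than the minimum fold change, and 0 changed sign while called. Dim probes limit what the arrays show, since a signal at background gives only a bound.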
